A study of Mus musculus with 8 samples.

Results

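The genes described here are the solute carriers and ABC transporters of mouse liver, read by ribosome profiling, which sequences the stretches of mRNA that ribosomes shield from a nuclease. Members were chosen by symbol among the genes with a line in the table, with earlier results of these data known. They are all genes whose symbol starts with Slc or Slco, apart from the mitochondrial Slc25a carriers. All genes of the ABC subfamilies A, B, C, D and G were added. The rule found 149 members among the 7500 genes of the table, 123 of them solute carriers and 26 ABC genes, from 44 families. Livers came from male FVB/N mice that ate a selenium-deficient diet (0 Se) for 6 weeks from weaning, or the same diet supplemented with 0.1 ppm selenium as sodium selenite (0.1 Se). Each diet was represented by 2 mice and each mouse by 2 libraries, which makes 8 libraries from 4 animals. Whole liver was lysed, so every cell type of the organ contributed, and the animals of both groups shared strain, sex and base diet. Each gene has a single abundance, the authors' average over both diets, so the levels below describe liver of both groups together and make no comparison of the diets.

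Solute carriers move small molecules across membranes by facilitated diffusion or by coupling to an ion gradient, whereas ABC transporters spend ATP to do so. A hepatocyte has a sinusoidal face, which takes nutrients, bile acids and drugs from the blood and returns others to it, and a canalicular face, which pumps bile acids, phospholipid, cholesterol and conjugates into bile. The name of a family does not fix its place in the cell. By the list used here, 45 of the 149 members work in organelle membranes such as those of the Golgi, endoplasmic reticulum, peroxisome, lysosome or mitochondrion, and 2 are marked as no transporter, so 102 members were left that were not assigned to an organelle. That mark was not given to members with other roles, such as the channel subunit Abcc9 or Slc27a5, which joins bile acids to coenzyme A.

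Abundance is given as log2 CPM, where CPM is counts scaled to a total of 1000000 footprints, and a level that can be set side by side between genes is the footprint density, which is log2 CPM per kilobase of counted coding sequence. A difference of 1 in density is a 2-fold difference in footprints per base. The transporter genes had a median density of 3.72, or 13.2 CPM per kilobase, against 3.50 for all 7500 genes, and 81 of the 149 members (54.4%) lay above the median of the table. Densities ran from −0.41 for Slc6a8, the creatine transporter, to 10.35 for Slco1b2, a 1739-fold span. Slco1b2 takes bile acids and other organic anions into hepatocytes. Slc6a8 had 1.389 CPM, close to the authors' filter of over 1 CPM in at least 3 samples, which limits how low the span can reach. A density of 8 or more was reached by 8 members, and 20 members were under 1. In all, 15 members (10.1%) were in the top 10% of the table by density, a share near the 10% of all genes that it holds by construction, and 2 were in its top 100. No replicate value stands behind any of these levels, so the order of genes with close densities could not be judged against a spread, and fewer cells of a type and less RNA per cell cannot be told apart in whole tissue.

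**Figure D1:**
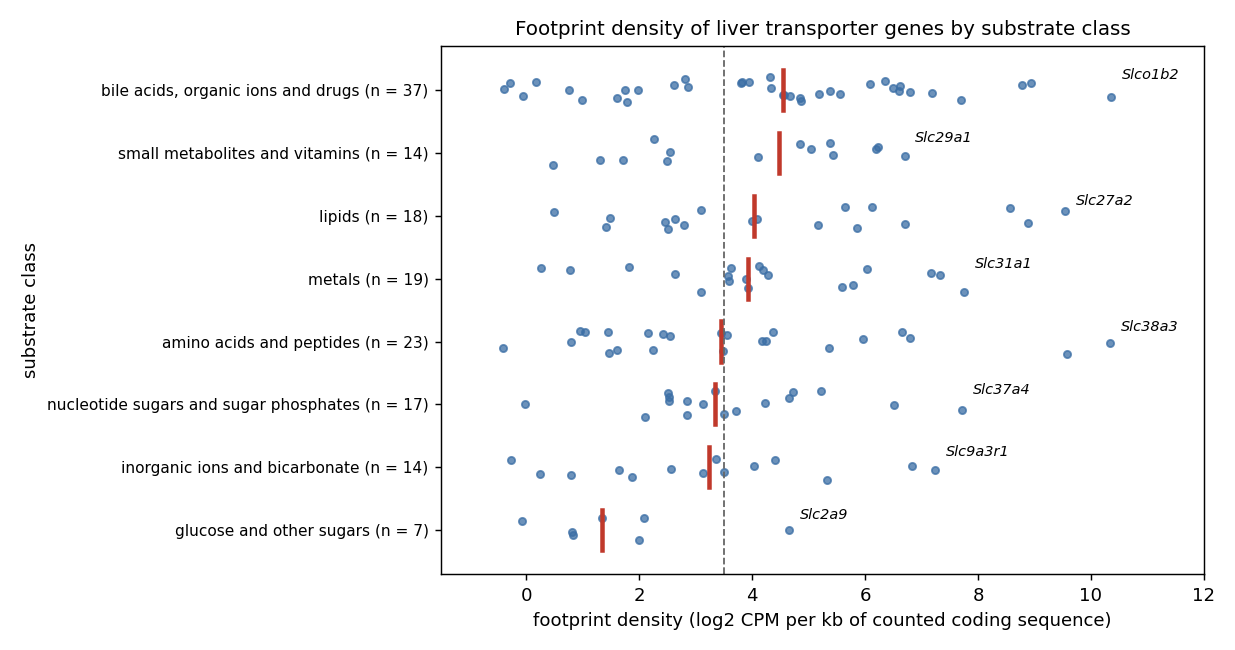
Footprint density of the transporter genes by substrate class, in log2 CPM per kilobase of counted coding sequence, with 1 point per gene, red bars at the class medians, a dashed line at the median of all 7500 genes (3.50) and the top gene of each class named. The spread within each class is wide, from −0.40 to 10.35 for bile acids, organic ions and drugs, and the class medians lie between 1.35 for sugars and 4.54 for bile acids, organic ions and drugs.

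Together the members held 1.83% of the CPM total of 1000000, and a few genes carried most of it. Slco1b2 alone took 14.4% of the footprints on members. The top 4, which were Slco1b2, Slc38a3, Slc27a2 and Slc38a4, held 38.7%, the top 10 held 61.9% and the top 20 held 76.1%. By substrate class, carriers of bile acids, organic ions and drugs took 0.736% of that total, lipid transporters 0.413% and amino acid and peptide transporters 0.385%. Each of the other 5 classes took between 0.00667% for sugars and 0.101% for metals. Solute carriers held 1.43% and ABC genes 0.394%. These sums cover only genes with a line in the table. The annotation lists 371 coding genes that fit the rule and 148 of them (39.9%) had a line, from 23.3% of sugar transporters to 63% of nucleotide sugar and sugar phosphate transporters, so a class with fewer lines could be undercounted. The rest were not analysed here.

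**Figure D2:**
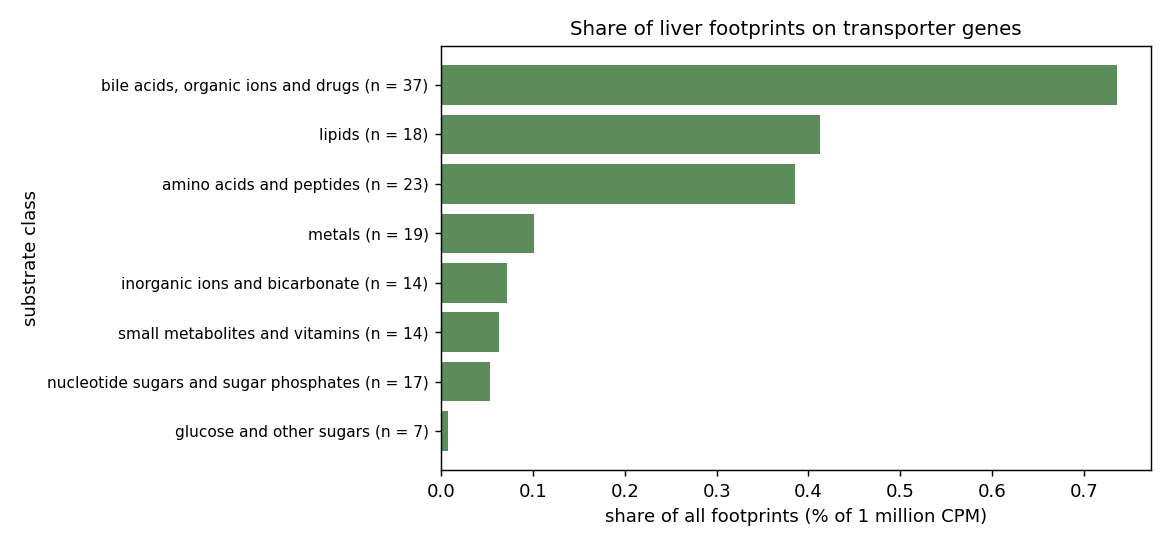
Share of all footprints taken by each substrate class, in percent of the CPM total, with n the number of genes with a line. Bars start at 0, and the bar for bile acids, organic ions and drugs (0.736%) is the longest, followed by lipids (0.413%) and amino acids (0.385%).

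The tissue label was checked against marker genes. Of 6 hepatocyte markers, 5 had a line, at densities from 10.84 to 15.66, and together they took 13.6% of the CPM total. Markers of Kupffer cells (6 of 7 with a line), sinusoidal endothelium (5 of 5) and stellate cells (5 of 5) summed to 438, 371 and 357 CPM. Those of cholangiocytes summed to 48.3 CPM (4 of 5), of which Spp1 alone gave 40.51. Those of lymphocytes summed to 11.8 CPM (1 of 5), while none of 5 erythroid markers had a line. A gene without a line was not analysed, so a missing marker does not show that its cells were missing. The hepatocyte marker Cps1 had no line either. Of 6 listed transporters known mainly from other liver cell types, 2 had a line. Slco2a1, a prostaglandin carrier of endothelium, had a density of 4.56, and Abcc9, a channel subunit of vascular muscle and pericytes, had 2.62. The part that these cells play in the level of any other member was not tested.

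Carriers that bring bile acids and organic ions in from the blood were among the most densely translated members. Slco1b2 (chromosome 6, 141578039 to 141635167, mm9 build, plus strand) had a density of 10.35, or 2628 CPM over the whole counted coding sequence. Slco1a1, an organic anion carrier encoded close by on the opposite strand, had 8.93. Slc10a1, the sodium-coupled bile acid carrier NTCP (chromosome 12, 82054172 to 82068971, minus strand), had 8.78. These were the 3 members of this class at a density of 8 or more.

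Slc22a7, an organic anion carrier, followed with a density of 6.60 and Slco2b1, which also takes up organic anions, had 6.36. Slco1a4, a close relative of Slco1a1, had 5.18. Slc10a2, the bile acid carrier known from the ileum and bile duct epithelium, had a density of 4.54, which was 4.24 below that of Slc10a1, an 18.9-fold difference. The cholangiocyte markers summed to 48.3 CPM, but mostly through Spp1, with 1.653 for Krt7, 1.988 for Krt19 and 4.157 for Sox9. The part of these cells in the level of Slc10a2 was not tested.

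Export pumps of the bile canaliculus were all below the 7 highest uptake carriers in density, and 7 of the 8 lay between 4.68 and 7.18. Abcc2, which exports bilirubin conjugates and glutathione conjugates, had a density of 7.18. Abcg2, a pump of drugs and urate, had 6.70, and Abcb11, the bile salt export pump, had 6.62. Abcb4, which moves phosphatidylcholine into bile, had 6.09. Abcg5 and Abcg8, the 2 chains of the sterol pump that sends cholesterol and plant sterols into bile, had densities of 5.64 and 6.13, so the partners differed 1.4-fold. Their annotated spans overlap on opposite strands, and whether the counting used strand is not stated. Slc47a1, which passes organic cations on into bile, had 4.68. Abcb1a, a drug efflux pump, stood far below the rest of this list at −0.29, with 3.095 CPM in all.

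Genes that return material to the blood spanned a range as wide. Slc40a1, the iron exporter ferroportin, had a density of 7.17. Abcc3, which exports conjugates and bile acids to blood, had 6.79, and its canalicular relative Abcc2 was 0.39 higher. Slc16a1, a carrier of lactate and other monocarboxylates that can run in either direction, had 6.19. Abcc6, the pump whose loss causes ectopic calcification, had 5.38. Abcc4, a further pump of conjugates and nucleotides, had −0.40, the lowest of this class.

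Set against each other, the 11 sinusoidal uptake genes with a line, of 14 listed, had a median density of 7.69, the 8 canalicular export genes, of 9 listed, had 6.11, and the 5 sinusoidal export genes, of 8 listed, had 6.19. Every one of the uptake genes lay above the median of the table, as did 7 of the 8 canalicular genes and 4 of the 5 sinusoidal exporters. The uptake median was 1.58 above the canalicular one. The lists were written by hand with earlier results of these data known, so this gap is only a description of them. The uptake list also holds amino acid and metal carriers, such as Slc38a3 (10.34), Slc38a4 (9.58) and Slc39a14 (7.33). Within the bile acid route the uptake carrier Slc10a1 was 2.16 above the export pump Abcb11, and Slco1b2 was 3.73 above it, which are 4.46-fold and 13.3-fold differences in footprints per base. Members of a list are not replicates, and the lists overlapped in density, since Slco1a4 at 5.18 was below 6 of the canalicular genes. The uptake list held 45.1% of all footprints on members, the canalicular list 9.74% and the sinusoidal export list 5.63%.

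**Figure D3:**
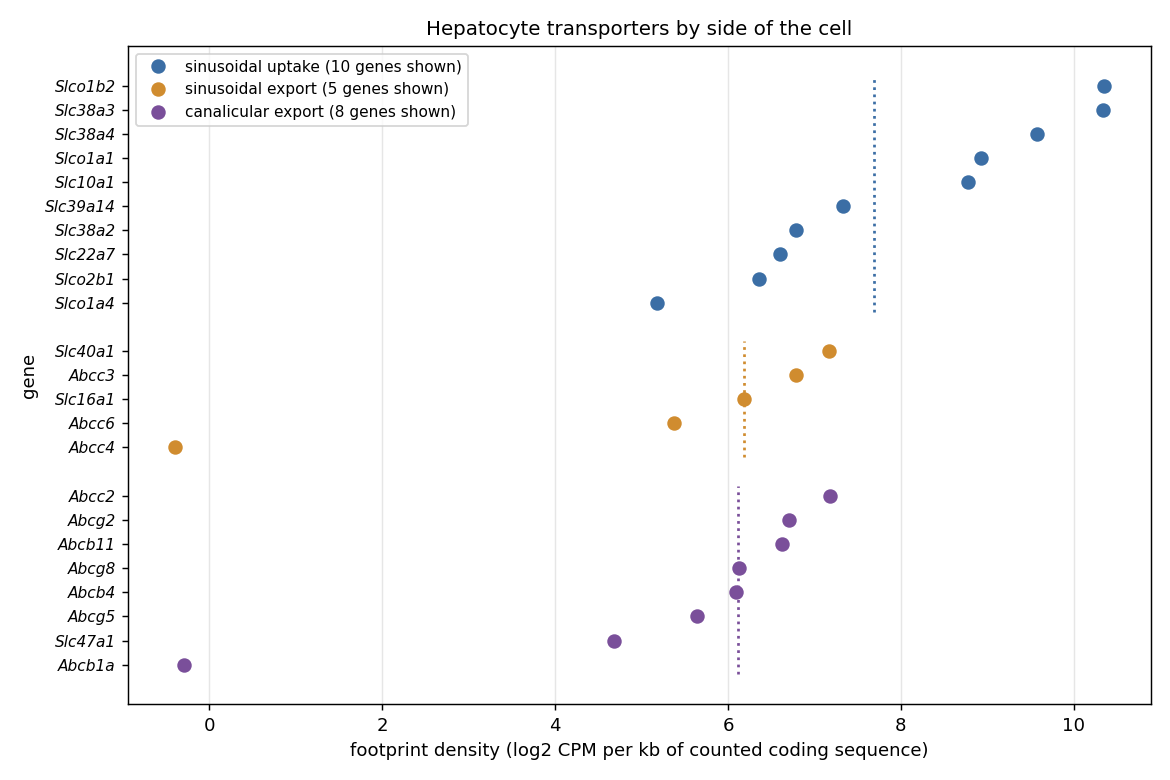
Footprint density, in log2 CPM per kilobase, of the transporters listed for sinusoidal uptake, canalicular export and sinusoidal export, with 1 named point per gene and a dotted line at the median of each whole list. The figure shows 10 of the 11 uptake genes. Uptake genes run from 5.18 to 10.35, and both export lists fall between −0.40 and 7.18.

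Amino acid transport was led by the sodium-coupled neutral amino acid family Slc38. Slc38a3, the glutamine carrier SNAT3 (chromosome 9, 107552970 to 107569705, minus strand), had a density of 10.34, almost that of Slco1b2. Slc38a4 (chromosome 15, 96825254 to 96886387, minus strand) had 9.58 and Slc38a2, from the same chromosome, had 6.79. These and 4 other members of the family held 18.2% of all footprints on transporters. Slc6a13, a carrier of GABA and taurine, had 6.66, and its neighbour Slc6a12, the betaine carrier, had 5.36.

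The class as a whole had a median density of 3.45 over 23 genes, and 10 of them lay above the median of the table, 3.50. The 3 members of the Slc7 family, which are amino acid exchangers and relatives of them, were between 1.05 and 1.61. Slc6a8 was lowest at −0.41.

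Lipid transport was led by genes that the list assigns to the peroxisome and endoplasmic reticulum rather than of the cell surface. Slc27a2, which takes up long-chain fatty acids and activates very-long-chain ones, had a density of 9.54. Slc27a5, which joins bile acids to coenzyme A, had 8.88. Both count as lipid transporters by family number. They took 0.134% and 0.0949% of the CPM total, out of 0.413% for the class. Abcd3, an importer of fatty acids and bile acid precursors into the peroxisome, had 8.56. Abcg2, placed here by family number although it is chiefly a drug and urate pump, came next at 6.70. The subfamily A genes spanned 0.50 for Abca9 to 5.86 for Abca6. The class median was 4.04 over 18 genes.

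Metal transporters had a median density of 3.93, and 14 of 19 lay above the median of the table. Slc31a1, the copper importer CTR1, had 7.75 and its relative Slc31a2 had 3.89, a 14.5-fold difference. Slc39a14, which takes up zinc, manganese and iron, had 7.33, and Slc39a8, of like substrates, was 4.23 lower. Slc40a1 had 7.17 as given above, whereas Slc11a2, the iron importer DMT1, had 3.60. Slc39a4, a zinc importer best known from the intestine, had 6.04. At the low end, the magnesium carrier Slc41a1 had 0.27. All 5 members of the zinc exporter family Slc30 lay within 1.56 of each other, upward from 2.64 for Slc30a5, the narrowest span of any family with 5 or more members.

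Sugar transporters were the sparsest class, with a median density of 1.35 over 7 genes and 1 of them above the median of the table. That gene was Slc2a9, which carries urate, at 4.66. Slc5a3, a myo-inositol carrier, had 2.09, Slc2a5, a fructose carrier, had 1.99 and Slc45a3 had 1.35. Slc5a1, the sodium-glucose carrier of the intestine, was lowest at −0.07. Slc2a2, the glucose carrier of the hepatocyte surface, had no line and was not analysed here, so the class total leaves it out.

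Sugar phosphates and nucleotide sugars are moved across the endoplasmic reticulum and Golgi membranes. Slc37a4, which brings glucose 6-phosphate to the phosphatase that releases glucose, had a density of 7.71, which was 5.18 above Slc37a3. Slc35d1, a carrier of UDP-sugars into the endoplasmic reticulum, had 6.52. Slc35b1, which exchanges ATP for ADP there, had 5.22 and Slc35a3, the UDP-N-acetylglucosamine carrier of the Golgi, had 4.72. Slc37a1 was lowest at −0.02, and the median of the 17 genes was 3.34.

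Small metabolites and vitamins had a median density of 4.48 over 14 genes. Slc29a1, the nucleoside carrier ENT1, led at 6.70, and Slc16a1 had 6.19. Slc16a7, another monocarboxylate carrier, had 5.44, and Slc16a9 was lowest at 0.48. Among the inorganic ion genes, Slc26a1, which exchanges sulfate and oxalate, had 6.83. Slc4a4, a sodium bicarbonate carrier, had 5.32, Slc12a7, which carries potassium with chloride, had 4.41, and Slc12a9 was lowest at −0.26. The top gene of that class by number, Slc9a3r1, had 7.24, but it encodes NHERF1, a scaffold that binds transporters. Slc4a1ap, an adaptor protein, had 4.03.

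Some members share stretches with another gene in which a footprint cannot be placed by sequence, and this may bear on their values. Only reads that aligned to a unique place were counted, per the methods. Every 30-base window of the counted coding sequence was therefore searched against the coding sequences of all other genes, with every annotated isoform included. The authors aligned to the longest RefSeq isoform only, so a match found here need not apply to their counts. Of 148 members that could be searched, 132 had under 1% of their windows in another gene, and 5 had over 20%. These were Slc22a30 (72.5%), Slc22a28 (67.5%), Slc22a5 (34.3%), Abcb1a (31.2%) and Slc35a3 (27.4%). The main match of Slc35a3 was Hiat1, which is not a member. Allowing up to 2 mismatches raised Slc22a30 to 100% and Slc22a28 to 99.7%, and added Slco1a4 (62.5%) and Slco1a1 (53.1%).

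The windows below show 3 such pairs, all on reference coding sequence of the mm9 build (NCBIM37) and written 5′ to 3′ along the gene. Capitals mark bases that differ within a pair, counted from 1 at the 5′ end, first gene first.
Slc22a28 (chr19:8206192-8206221, minus strand): ttccagatccttcagatctcttttgttctc
Slc22a30 (chr19:8479321-8479350, minus strand): ttccagatccttcagatctcttttgttctc
Slco1a1 (chr6:141891963-141891992, minus strand): ttaTatgaattccatgctcacAcaaataga
Slco1a4 (chr6:141789838-141789867, minus strand): ttaCatgaattccatgctcacTcaaataga
Abcb1a (chr5:8702156-8702185, plus strand): ttgaagggcctcaaTctgaaggtgaagagC
Abcb4 (chr5:8920338-8920367, plus strand): ttgaagggcctcaaCctgaaggtgaagagT
The first pair is identical over the window, the second differs by T4C and A22T, and the third by T15C and C30T.

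Within these pairs the densities were far apart. Slco1a1 was 3.75 above Slco1a4, a 13.5-fold difference. Slc22a30, at 4.33, was 2.54 above Slc22a28, at 1.79, and both belong to a rodent expansion of organic anion carriers. Abcb4 was 6.38 above Abcb1a, an 83.1-fold difference. The partners shown are not always the closest match. Within 2 mismatches, Abcb1a had 1943 windows in common with Abcb1b, which had no line, against 625 with Abcb4. Slco1a1 and Slco1a4 had 638 and 815 with Slco1a5, against 591 with each other. Slc22a5, the carnitine carrier, had 2.82. Densities were also worked out on the assumption that footprints had been counted only in windows with no match within 2 mismatches. The counts did not follow this rule throughout, since Slc22a30, with 100% of its windows matched, still had 32.22 CPM. The assumption gave 10.02 for Slco1a1 and 6.59 for Slco1a4, 6.37 for Abcb4 and 0.80 for Abcb1a, 4.21 for Slc22a5 and 5.19 for Slc35a3. The assumption moved the Slco1a and Abcb genes by far less than the gap within each pair, so it could not have changed their order. For Slc22a28 and Slc22a30 almost no such windows were left, and their densities remain uncertain.

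Densities also differed between members that lie near each other on a chromosome. With a gap of up to 200 kb allowed, 33 members fell into 14 groups of neighbours. Genes that are not members may lie between them. Densities within a group ranged over 0.48 for the divergent partners Abcg5 and Abcg8 and over 6.42 for Abcc10 and Slc22a7, an 85.7-fold difference. The 3 Slco genes of chromosome 6 spanned 5.18, and the 5 subfamily A genes of chromosome 11 (109793504 to 110199030) spanned 5.36. In that group Abca8a, at 5.17, was 2.12-fold above Abca8b and 25.5-fold above Abca9. The 3 Slc17 genes of chromosome 13, a family of organic anion and phosphate carriers, spanned 3.94.

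**Figure D4:**
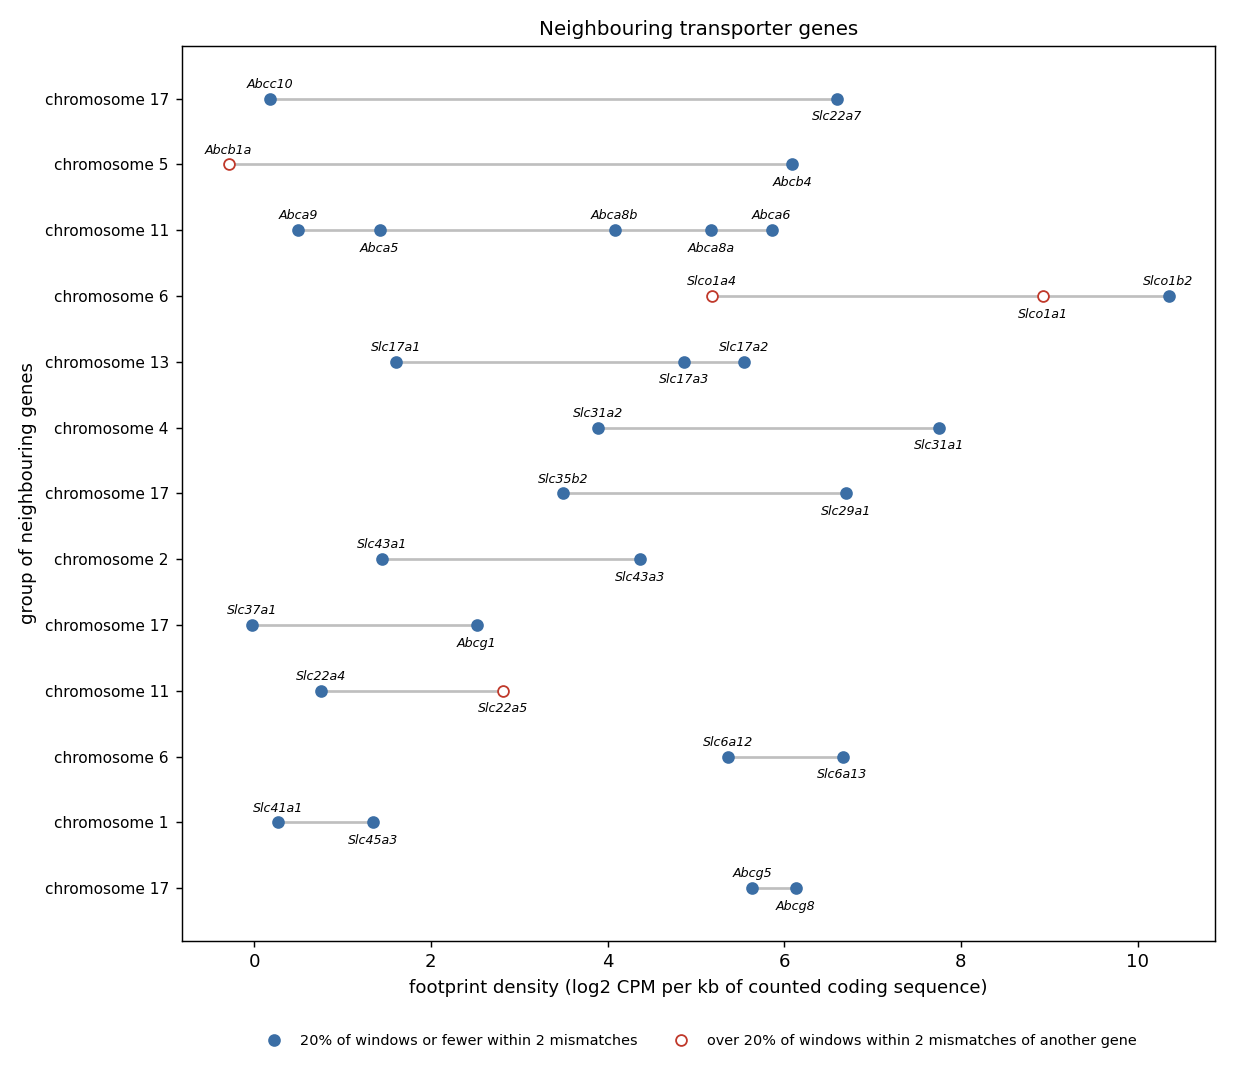
Footprint density, in log2 CPM per kilobase, of the transporter genes in 13 of the 14 groups of neighbours, with 1 row per group and open points for genes with over 20% of windows within 2 mismatches of another gene. The span is 0.48 for Abcg5 and Abcg8 and 6.42 for Abcc10 and Slc22a7.

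Other proteins that serve the same membranes were read beside the transporters. Of 22 listed pumps, channels and receptors, 14 had a line, with a median density of 6.16 and a range from 0.87 to 7.96. Among them was the water channel Aqp1 at 7.14. The mitochondrial Slc25a carriers, which the rule leaves out, had a median density of 4.27 over 27 genes and held 0.177% of the CPM total. Members in organelle membranes had a median of 3.48 and the 102 not assigned to an organelle had 4.12. Across the 149 members, density was weakly related to coding length (Spearman's rho −0.10), a description over genes of the same libraries.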

How the data were processed

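Livers of 4 mice gave 8 ribosome profiling libraries. Per the methods, the authors trimmed adapters, removed ribosomal RNA reads, counted reads aligned uniquely with Bowtie with at most 2 mismatches to the longest RefSeq isoform in mm9, leaving out the first 15 and last 3 codons, and used edgeR on genes over 1 CPM in at least 3 samples. Bowtie, edgeR and mm9 are also named in the submitters' processing notes, with each version not given in the sources used here.

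Per gene, the deposited table holds a coding length, the authors' average log2 CPM over all libraries, and the authors' own comparison of the diets (log2 fold change, fold change, p-value and adjusted p-value). The comparison columns were not used, and the planned edgeR test of the diets was not run because it needs counts per library. Values therefore carry no SD and no n, and the depth of the libraries is unknown. Whether a gene has a line may depend on the authors' comparison, since the p-value column stops short of 1.

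Footprint density was log2 CPM minus log2 of the deposited length in kilobases. That length was 20 codons (60 bases) shorter than the annotated coding sequence in 7093 of 7260 genes (97.7%), so it was taken as already trimmed and no codons were subtracted, unlike the plan. Shares are sums of CPM out of 1000000. Lengths, places and windows came from the mm9 (NCBIM37) annotation, with windows searched by bwa 0.7.19-r1273. The remaining steps used Python 3.11.15 and pandas 2.3.3. The density and share formulas were tested on simulated data, while the window search as run and the other steps were not. Members, substrate classes and lists were chosen with earlier results of these data known. Genes named are, in each class, the 4 highest and 1 lowest by density, listed uptake and export genes, members that are no transporter and those sharing over 20% of windows, apart from some genes that are not reported here. Abca6, Abca8a, Abca8b, Abcc10, Slc10a2, Slc11a2, Slc30a5, Slc31a2, Slc37a3, Slc39a8, Slc6a12, Abcc9 and Slco2a1 were named beside these as relatives, neighbours or listed genes, after values were seen.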

Additional observations from a re-analysis of the deposited data

How the results depend on the processing

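No paired analysis was possible because no mouse number occurs in both diets and the values used are averages over all libraries. The transporter median stayed above that of the table, and the uptake median above the canalicular one, under each alternative tried for them. No alternative used other lists of uptake or export genes. The order of classes by share was the same under the 3 alternatives tried for it, but these left little room for change. The sum over all lines divides every class alike, and leaving out members with shared windows moved only the organic ion and nucleotide sugar classes. The alternative without organelle genes was not worked out by class. It would take Slc27a2 (0.134%), Slc27a5 (0.0949%) and Abcd3 (0.0724%) out of the lipid class (0.413%). The order of classes by median density changed under 2 of 3 alternatives, as given below. With the sum over all lines (85.7% of the CPM total) as the total, the share of the transporter genes was 2.13%, and the classes took 0.859% (bile acids, organic ions and drugs), 0.482% (lipids), 0.449% (amino acids), 0.117% (metals), 0.0832% (inorganic ions), 0.0731% (small metabolites), 0.0621% (nucleotide sugars) and 0.00778% (sugars). Without the 10 most abundant genes in that total the share was 2.96%. Without organelle and non-transporter genes it was 1.4%, the median density 4.12 and its excess over the table median 0.62, against 0.23. Leaving out members with over 20% of windows in another gene gave a share of 1.82%, class shares of 0.731% and 0.0508% for organic ions and nucleotide sugars, a median of 3.76, an excess of 0.27 and an uptake-minus-canalicular difference of 1.56, and leaving out those within 2 mismatches (an alternative chosen after seeing the data) gave 1.72%, 0.629%, 0.0508%, 3.68, 0.18 and 1.56.

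Taking 18 further codons off the length gave a median density of 3.78, an excess of 0.21, a difference of 1.6 and class medians of 3.48 (amino acids), 1.4 (sugars), 4.6 (organic ions), 4.12 (metals), 4.07 (lipids), 3.29 (inorganic ions), 4.54 (small metabolites) and 3.41 (nucleotide sugars), so metals passed lipids. The whole annotated length, also chosen after seeing the data, gave 3.67, 0.25, 1.56 and, in that order of classes, 3.42, 1.3, 4.46, 3.87, 4.01, 3.2, 4.42 and 3.26. Dropping genes below a log2 CPM of 3 gave a median of 4.56, an excess of only 0.05 and class medians of 4.37, 3.37, 5.18, 4.2, 4.63, 3.77, 5.04 and 3.72, where amino acids passed metals and inorganic ions passed nucleotide sugars. Means in place of medians gave 3.87 for the members, an excess of 0.15 and a difference of 2.65. The cause of these changes was not tested. Of 149 members, 42 (28.2%) had a log2 CPM under 3, with 0.93% of member footprints, and their densities are the least precise.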
